A study of Homo sapiens with 16 samples.

Results

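The binding of SMAD3 to chromatin was compared between H69 cells treated with recombinant human TGF-beta and H69 cells given vehicle. H69 is an established human cell line of cholangiocytes, which form the lining of bile ducts. Cells received TGF-beta at 10 ng/ml, or vehicle, for 16 h, and SMAD3 was mapped by chromatin immunoprecipitation with sequencing (ChIP-seq). The 4 SMAD3 libraries, TGF-beta replicates 4 and 5 and vehicle replicates 4 and 5, were chosen by their antibody and agent labels from 16 samples, 12 of which were analysed here. The 4 H3K27ac and 4 H3K9ac libraries of the same cells, numbered 1 and 2 in each treatment, are given only beside SMAD3 results. All samples are 1 cell line, and since no label says that replicates came from separate cultures, tests measure only the spread between these libraries. The passage labels give 1 shared range for 3 of the SMAD3 libraries and a range that ends 1 passage later for TGF-beta replicate 5, which does not settle whether cultures were separate.

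TGF-beta binds a pair of receptor kinases, TGFBR2 and TGFBR1, which phosphorylate SMAD2 and SMAD3. Phosphorylated SMAD3 joins SMAD4, enters the nucleus and binds short DNA elements beside partner factors such as AP-1, RUNX, ETS and TEAD proteins. Classic targets encode inhibitors that end the signal, matrix proteins and actin regulators, and in bile ducts the pathway is best known for its part in fibrosis.

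Each file listed the peaks of 1 library, that is the stretches of genome where the peak caller found more fragments than background, with a score. There were 33700 and 34413 peaks in TGF-beta replicates 4 and 5, against 22451 and 25268 in vehicle replicates 4 and 5. They covered 19.6 and 19.6 Mb with TGF-beta, against 11.2 and 14.5 Mb with vehicle, while median scores were 15.0 and 13.8 with TGF-beta, against 26.9 and 24.6 with vehicle. No read counts were given, so read depth is unknown, no counting error can be given, and what part depth had in the number and length of peaks was not tested. H3K27ac lay in all 4 libraries of that mark at 6 of 10 cholangiocyte markers, 6 of 10 hepatocyte markers, 7 of 11 mesenchymal and endothelial markers and 7 of 11 leukocyte markers, so peak presence did not set the labelled cell type apart. SMAD3 lay in all 4 libraries at 5 of 10, 3 of 10, 6 of 11 and 5 of 11 of them in the same order. Markers without any SMAD3 peak included CFTR, AQP1 and SPP1 for cholangiocytes, ALB, TTR, FGB, CYP3A4 and ASGR1 for hepatocytes, DES, LUM, DCN and VWF for mesenchymal and endothelial cells, and PTPRC, CD8A, MS4A1 and ITGAM for leukocytes.

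Merging peaks that shared at least 1 bp gave 38390 regions. Of these, 15998 (41.7%) were called in all 4 libraries and are named constant here. Another 5253 (13.7%) had peaks in both TGF-beta libraries and neither vehicle library, and are named gained. The opposite pattern, named lost, held for 257 regions (0.669%). When every library was held to an equal number of its best-scored peaks, 1691 regions were gained and 563 lost, so the balance of gains to losses depended on how many peaks were called.

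Where the added SMAD3 length lay was split among the classes. The TGF-beta libraries averaged 6.81 Mb more peak length than the vehicle libraries, and constant regions held the greatest share of it, 46.5%. Constant regions covered 15.1 and 15.3 Mb with TGF-beta, against 10.9 and 13.2 Mb with vehicle. Gained regions covered 1.96 and 1.79 Mb with TGF-beta and held 27.5% of the difference, and regions called in any other combination of libraries, named mixed, held 27%. Lost regions covered 0.0623 and 0.0776 Mb with vehicle. Constant regions thus held more of the added length than gained regions. Mixed regions can include sites called in 1 TGF-beta library and neither vehicle library, and these were not counted apart. Some constant regions had little length with vehicle. The constant region at TGFBI measured 16.6 and 16.0 kb with TGF-beta, against 0.526 and 0.724 kb with vehicle.

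**Figure D1:**
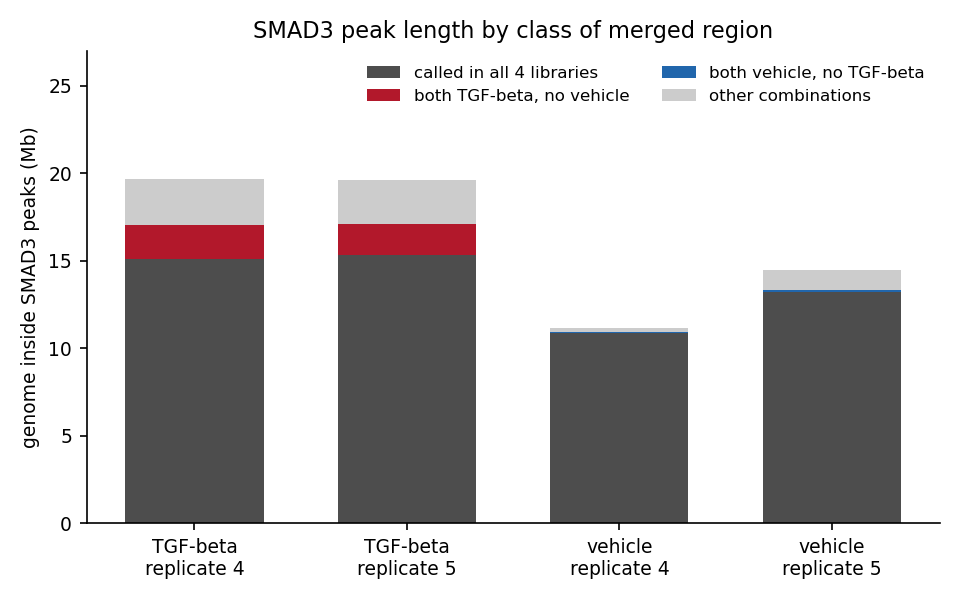
Genome inside SMAD3 peaks (Mb) in each library, stacked by class of merged region. Constant regions make up 15.1 and 15.3 Mb of the TGF-beta bars and 10.9 and 13.2 Mb of the vehicle bars, and lost regions are barely visible.

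Gained regions often lay near a site that was occupied in both treatments. The median distance from a gained region to the nearest constant region was 6.87 kb, 45.0% lay within 5 kb of one and 82.1% within 50 kb. Lost regions had a median distance of 7.82 kb, with 44.4% within 5 kb. Mixed regions lay closer than both, with a median distance of 4.15 kb and 53.0% within 5 kb. A short distance to a constant region was therefore shared by gained, lost and mixed regions. When peaks within 12.5 kb were joined into domains, 65.7% of gained regions and 61.5% of lost regions shared a domain with a constant region. There were 452 domains with at least 3 gained regions, and they held 2040 of them, or 38.8%. Gained and lost regions shared a domain in 50 of 14568 domains.

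Many gained regions were already acetylated with vehicle. Of gained regions, 66.6% overlapped H3K27ac peaks in both TGF-beta libraries of that mark and 58.4% in both vehicle libraries. For lost regions these shares were 71.6% with TGF-beta and 78.2% with vehicle, and for constant regions they were 94.5% with TGF-beta and 94.2% with vehicle. H3K9ac, a mark found mainly at active promoters, covered 66.1% of gained regions with TGF-beta and 56.7% with vehicle.

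The width of a single peak set the TGF-beta libraries apart. The longest SMAD3 peak was 25.2 and 15.1 kb in TGF-beta replicates 4 and 5, against 6.63 and 7.64 kb in vehicle replicates 4 and 5. Peaks over 2 kb numbered 702 and 582 with TGF-beta, against 86 and 270 with vehicle, and held 10.5% and 8.33% of peak length with TGF-beta, against 2.07% and 4.87% with vehicle. Peaks over 5 kb numbered 39 and 24 with TGF-beta, against 5 and 6 with vehicle. They fell on 45 sites, a set picked after the values were seen. At 14 sites both TGF-beta libraries and neither vehicle library passed 5 kb. An equal number of peaks per library or a minimum score only drops low-scored peaks. Neither changes the width of the rest, so neither can show whether width depends on read depth. With an equal number of peaks per library and with a minimum score of 5, this count was also 14. It was 20 without TGF-beta replicate 4 and 35 without TGF-beta replicate 5, where 1 TGF-beta library alone had to pass.

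These wide sites were of at least 2 kinds. At KRT7, which encodes a keratin of duct epithelium (chromosome 12, 52233243 to 52255853, GRCh38), the longest peak measured 25.2 and 15.1 kb with TGF-beta, against 3.58 and 4.33 kb with vehicle. Peaks of all sizes covered 25.2 and 25.5 kb of that site with TGF-beta, against 18.6 and 22.3 kb with vehicle. At KRT7 the longest peak therefore differed far more than the covered length, and neither overlapped between treatments.

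The second kind had little peak length with vehicle. TGFBI, which encodes a secreted matrix protein that TGF-beta induces, had 16.5 and 16.0 kb at its site with TGF-beta, against 0.526 and 0.724 kb with vehicle. TPM1, which encodes an actin-binding tropomyosin, had 11.8 and 11.3 kb with TGF-beta, against 3.10 and 4.12 kb with vehicle. DBN1, the gene of the actin-binding protein drebrin, had 7.83 and 7.81 kb with TGF-beta, against 0.931 and 2.03 kb with vehicle. At each of these 3 sites both TGF-beta libraries lay above both vehicle libraries by several kb.

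A few sites were wide in every library. VMP1 on chromosome 17, whose 3′ part overlaps the microRNA gene MIR21, had a longest peak of 9.88 and 10.8 kb with TGF-beta, against 5.34 and 7.45 kb with vehicle. TPT1, an abundant translation-linked gene, had 9.10 and 7.86 kb with TGF-beta, against 6.63 and 6.77 kb with vehicle. TNS4, a focal adhesion gene, had 9.49 and 7.11 kb with TGF-beta, against 5.07 and 5.77 kb with vehicle. VMP1, TPT1, TNS4 and PPP1R10 were the 4 sites that passed 5 kb in all 4 libraries. KMT2E, which encodes a chromatin regulator, was the 1 site that passed it in both vehicle libraries and neither TGF-beta library. Its longest peak was 4.80 and 2.69 kb with TGF-beta, against 5.46 and 6.50 kb with vehicle, while the total at the site was 6.11 and 5.99 kb with TGF-beta, against 6.0 and 6.50 kb with vehicle.

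**Figure D2:**
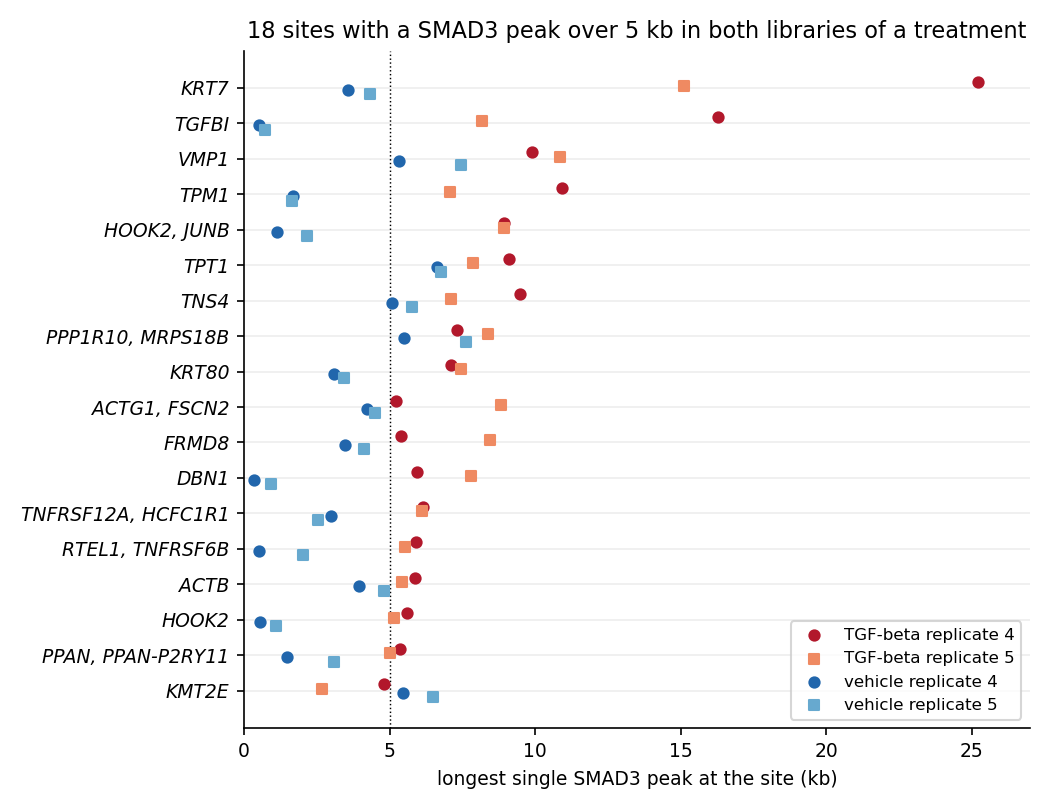
Longest single SMAD3 peak (kb) in each library at 18 of the sites where both libraries of a treatment passed 5 kb (dotted line), with sites named by the genes they overlap or, failing that, the nearest gene. KRT7 and TGFBI reach 25.2 and 16.3 kb in TGF-beta replicate 4, and KMT2E is the 1 site where only the vehicle libraries pass the line.

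Among stitched domains, 3 loci were within the top 5 of every library. The domain with most SMAD3 length lay on chromosome 22, 45996477 to 46123689, over the predicted gene LOC124905135 and the let-7b microRNA gene. It held 59.5 and 48.6 kb with TGF-beta, against 23.5 and 32.6 kb with vehicle, and ranked 1 and 1 with TGF-beta and 2 and 1 with vehicle. The KRT80 and KRT7 domain ranked 4 and 2 with TGF-beta and 1 and 2 with vehicle, and the TNS4 domain 3 and 3 with TGF-beta and 5 and 4 with vehicle. Domain ranks come from libraries with different numbers of peaks and are given as descriptions.

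TGFBI was the exception among the leading domains. Its domain on chromosome 5 held 48.8 and 36.9 kb with TGF-beta, against 0.828 and 1.27 kb with vehicle, and 24 gained regions, the most of any domain. It ranked 2 and 4 with TGF-beta and 5005 and 3222 with vehicle. The chorionic gonadotropin beta cluster on chromosome 19, from LHB to SNRNP70, held 32.0 and 26.4 kb with TGF-beta, against 1.78 and 3.48 kb with vehicle, and 16 gained regions. The gonadotropin genes in it are near-identical copies, so where the reads were placed within it is uncertain. TGM2, a transglutaminase that crosslinks matrix, also had 16 gained regions, in a domain with 20.9 and 13.2 kb with TGF-beta, against 1.83 and 3.42 kb with vehicle.

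A domain on chromosome 6, 44001522 to 44077855, held no protein-coding gene and was among the 10 with most added length, a choice made after values were seen. It had 22.7 and 21.7 kb with TGF-beta, against 3.03 and 4.27 kb with vehicle, and 10 gained regions. By contrast, a replication-dependent histone cluster on chromosome 6 (H1-4 to H2BC9) held 16.4 and 17.5 kb with TGF-beta, against 16.6 and 19.9 kb with vehicle, with 13 constant and 0 gained or lost regions. Its rank was 55 and 37 with TGF-beta and 3 and 6 with vehicle. The domain of BIRC3, a caspase inhibitor and NF-kappaB target, held 3 lost regions and had 0.244 and 0.354 kb with TGF-beta, against 1.56 and 2.36 kb with vehicle.

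Among genes, peak length inside the gene span with 10 kb on each side was compared over the 12508 protein-coding genes whose mean length reached 500 bp. Of these, 1395 rose (11.2%) and 210 fell (1.68%) in 872 and 176 separate loci, by limma on log2 of length plus 500 bp with Benjamini-Hochberg adjustment at 0.05. Values were centred on the library medians, which lay 0.32 higher on the log2 scale with TGF-beta, so rises and falls are relative to that shift. Without centring, 1825 rose and 11 fell. The log2 changes understate those of genes with little peak length. In raw length, without centring, both TGF-beta libraries lay above both vehicle libraries in 8619 genes (68.9%) and below them in 226 (1.81%).

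A further 5983 genes (47.8%) were kept, with a 95% interval of the log2 change within 0.5 on either side of 0. Changes over 2-fold numbered 467 rises and 21 falls, and changes over 4-fold 58 rises and 3 falls. In 49 genes that rose, no peak was listed in either vehicle library, and in 2 that fell none was listed in either TGF-beta library. SMAD3 bound in more cells and more SMAD3 bound per cell cannot be told apart in these bulk libraries.

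**Figure D3:**
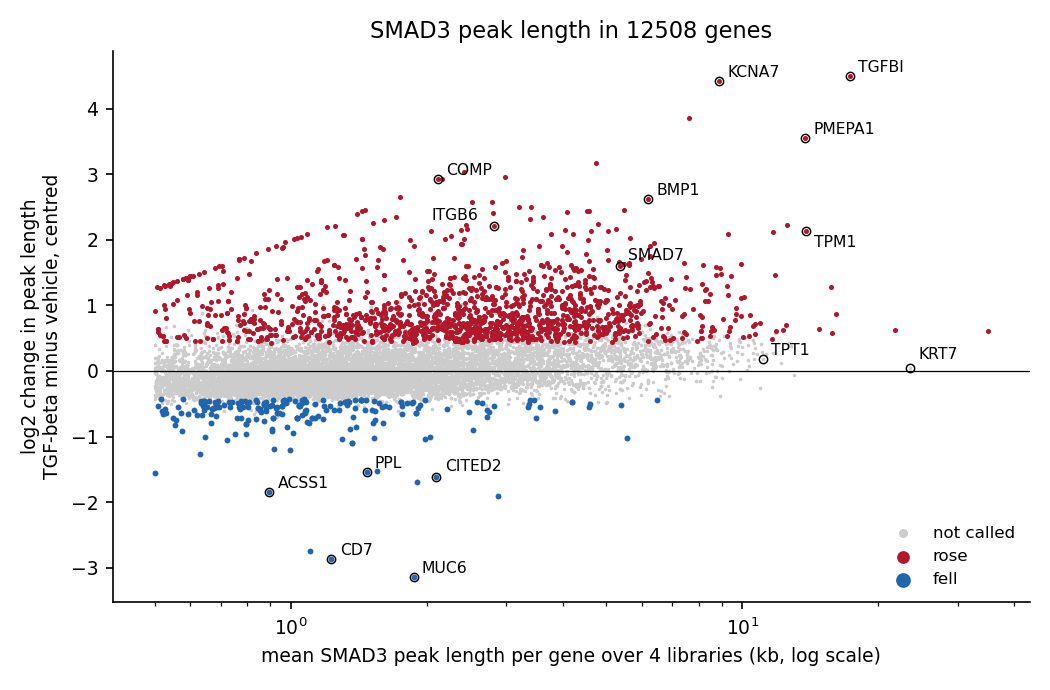
Mean SMAD3 peak length of each tested gene (kb, log scale) against its centred log2 change, with called genes coloured. TGFBI (4.50), KCNA7 (4.42) and PMEPA1 (3.55) lie highest of the labelled genes, and MUC6 (-3.15) lowest. KRT7, with much summed peak length in every library, lies near 0.

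The largest gains, 1 gene per locus, were led by TGFBI, KCNA7 and PMEPA1. TGFBI had 38.2 and 29.4 kb with TGF-beta, against 0.526 and 0.913 kb with vehicle (log2 change 4.50 ± 0.165 SE, adjusted p = 1.54e-05, limma). KCNA7, a voltage-gated potassium channel gene of the gonadotropin cluster, had 19.8 and 15.3 kb with TGF-beta and was listed at 0 and 0.392 kb with vehicle (log2 change 4.42, adjusted p = 2.66e-05, limma). PMEPA1, whose membrane protein limits SMAD signalling, had 28.6 and 23.7 kb with TGF-beta, against 0.844 and 1.95 kb with vehicle (log2 change 3.55, adjusted p = 5.95e-05, limma). The TGF-beta values lay far above the vehicle values at all 3 genes.

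Other loci were listed at 0 in both vehicle libraries. COMP, a matrix protein of cartilage and tendon (chromosome 19, 18782773 to 18791305), had 4.48 and 4.01 kb with TGF-beta. KIAA1755, a gene of little known function, had 6.44 and 3.25 kb with TGF-beta. TSPAN11, a tetraspanin membrane protein, had 5.28 and 3.37 kb and ODAPH, which encodes an enamel protein, 4.27 and 2.71 kb with TGF-beta. All 4 rose (adjusted p from 2.66e-05 to 0.000225, limma), and no fold is given against 0.

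BMP1, the procollagen C-proteinase (chromosome 8), had 13.6 and 9.11 kb with TGF-beta, against 0.971 and 1.05 kb with vehicle (log2 change 2.62). TAGLN, an actin-binding protein of smooth muscle, had 7.12 and 5.56 kb with TGF-beta, against 0.50 and 0.418 kb with vehicle (2.51). TREH, the trehalase gene, had 6.55 and 5.03 kb with TGF-beta, against 0 and 0.327 kb with vehicle (2.96). COL20A1, a collagen gene (2.58), and ATP2B3, a plasma membrane calcium pump (2.58), completed the 12. The call of COL20A1 was lost with an equal number of peaks per library (adjusted p up to 0.0694 over the alternatives, limma). The loci of KCNA7, COMP, ODAPH, BMP1, TAGLN, TREH, COL20A1 and ATP2B3 also hold other genes with overlapping windows. Their gains cannot be assigned to the named gene alone.

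Among these gains, TGFBI, PMEPA1, KIAA1755, TREH, COMP, TSPAN11, ODAPH and TAGLN rose in H3K27ac by limma. Their log2 changes of H3K27ac ran from 0.33 at PMEPA1 to 3.27 at COMP. BMP1 did not pass, and KCNA7, COL20A1 and ATP2B3 had too little H3K27ac to be tested. H3K27ac rose at 2067 of 13994 genes (14.8%) and fell at 1631 (11.7%), and H3K9ac rose at 621 of 14605 (4.25%) and fell at 762 (5.22%). Without centring these counts were 2507 and 880 for H3K27ac, and 180 and 377 for H3K9ac. At TGFBI, H3K27ac covered 26.4 and 25.2 kb with TGF-beta, against 11.7 and 13.0 kb with vehicle (log2 change 0.95, adjusted p = 0.000353, limma). At COMP it covered 4.64 and 4.61 kb with TGF-beta and was listed at 0 with vehicle. The windows of COL20A1 and ATP2B3, on the other hand, held no H3K27ac and no H3K9ac in any library, although both held SMAD3 with TGF-beta.

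Some of the wide SMAD3 gains lay in chromatin whose H3K27ac length did not pass the test. TPM1 had 12.6 and 13.7 kb of H3K27ac with TGF-beta, against 12 and 11.8 kb with vehicle (adjusted p = 0.721, limma). BMP1 had 43.8 and 42.9 kb of it with TGF-beta, against 33.2 and 38.0 kb with vehicle (adjusted p = 0.121, limma).

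Across all genes, of 1332 genes that rose in SMAD3 and were tested in H3K27ac, 461 (34.6%) rose and 3.08% fell in H3K27ac. Of 12320 genes tested in both, 13.0% rose and 10.5% fell. Of 204 genes that fell in SMAD3, 88 (43.1%) fell and 3.92% rose in H3K27ac. In H3K9ac, 59 of 209 genes that fell in SMAD3 fell (28.2%, against 4.19% of those tested in both) and 0 rose by limma. The median log2 change of H3K27ac was 0.16 for genes that rose in SMAD3, -0.23 for those that fell and -0.04 for those kept.

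The largest losses, 1 gene per locus, were led by MUC6 and CD7. MUC6, a gel-forming mucin of biliary and gastric glands (chromosome 11, 1012823 to 1036718), had 0 and 0.161 kb with TGF-beta, against 2.82 and 4.51 kb with vehicle (log2 change -3.15 ± 0.173 SE, adjusted p = 4.78e-05, limma). Its H3K27ac covered 2.32 and 2.31 kb with TGF-beta, against 8.47 and 8.62 kb with vehicle (log2 change -1.77). CD7, a leukocyte surface gene that shares its window with SECTM1, was listed at 0 in both TGF-beta libraries and had 1.99 and 2.94 kb with vehicle (adjusted p = 2.66e-05, limma). Both genes kept their loss in every alternative tried.

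ACSS1, the mitochondrial acetyl-CoA synthetase, had 0 and 0.508 kb with TGF-beta, against 1.55 and 1.53 kb with vehicle (log2 change -1.84). MLXIPL, the glucose-sensing transcription factor ChREBP, had 0.661 and 0.953 kb with TGF-beta, against 2.0 and 4.0 kb with vehicle (-1.69). CITED2, which encodes a binding partner of CBP and p300, had 1.06 and 0.945 kb with TGF-beta, against 2.87 and 3.53 kb with vehicle (-1.62). GREB1, an oestrogen-responsive gene (-1.56), and DAGLA, a lipase that makes an endocannabinoid (-1.52), also fell. So did PPL, which encodes the desmosomal linker periplakin (-1.54), SLCO4A1, an organic anion carrier (-1.26), and EPB41L4B, a cortical cytoskeleton gene (-1.21). The calls of PPL and EPB41L4B were lost without centring (adjusted p up to 0.0532 and 0.129, limma), and that of EPB41L4B also without vehicle replicate 5.

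**Figure D4:**
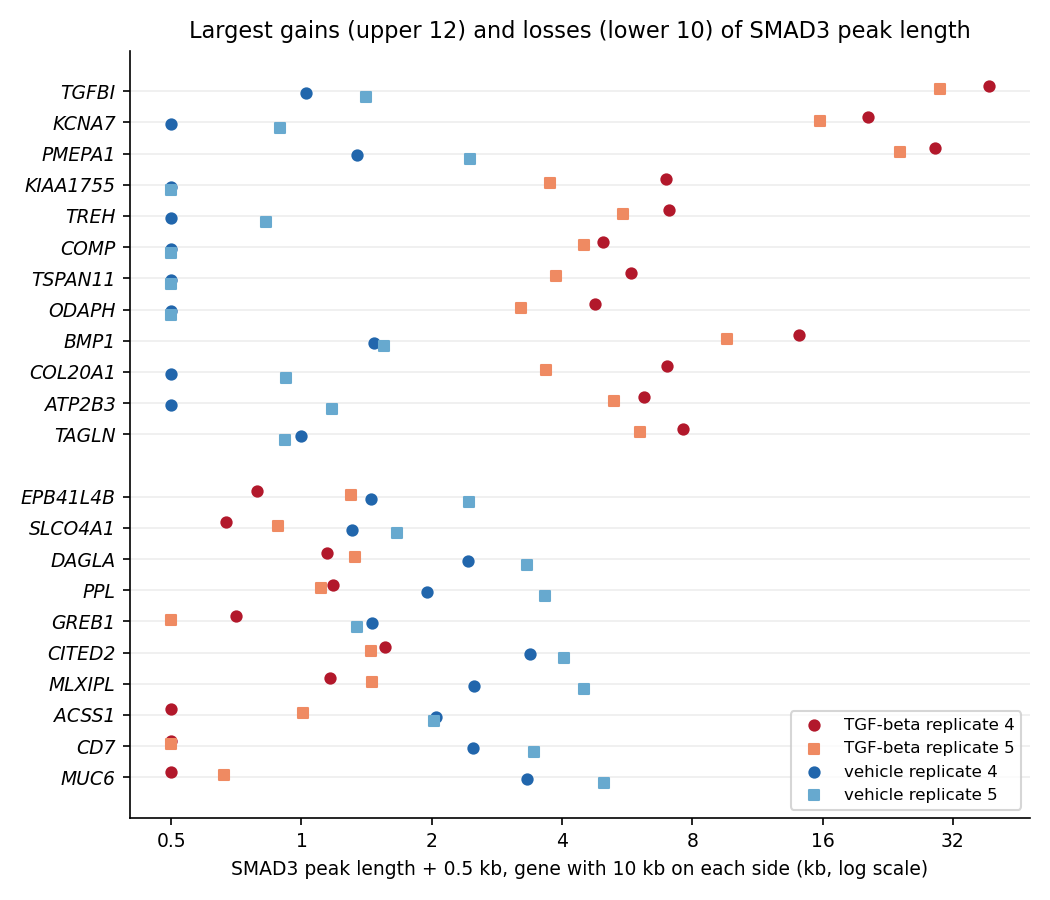
SMAD3 peak length plus 0.5 kb (log scale) in each library for the 12 genes with the largest gains (upper rows) and the 10 with the largest losses (lower rows), 1 gene per locus. In every row the 2 TGF-beta points and the 2 vehicle points do not overlap, a condition of the choice.

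The 10 kept genes with the most summed peak length, a measure that also depends on gene length, began with KRT7. KRT7 had 26.4 and 26.7 kb with TGF-beta, against 18.6 and 22.3 kb with vehicle, a centred log2 change of 0.05 (95% interval -0.22 to 0.32). ACTB, the cytoplasmic actin gene, had 11.3 and 10.7 kb with TGF-beta, against 7.67 and 8.49 kb with vehicle (0.10). SCNN1A, a subunit of the epithelial sodium channel (0.18), AJUBA, a junction and Hippo pathway scaffold (0.12), TPT1 (0.18) and DDAH1, an enzyme that degrades methylarginines (0.07), were among them. PPP1R10, MRPS18B, NCAPH2 and CHMP2A had changes from -0.12 to 0.16. In raw kb both TGF-beta libraries lay above both vehicle libraries at all 10 genes.

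Promoters were read as windows of 300 bp, from 250 before to 50 after an annotated start (RefSeq, GRCh38.p14). There were 22132 windows of 15812 genes. SMAD3 peaks of all 4 libraries touched 11472 of them (51.8%), 380 were gained (1.72%) and 37 lost (0.167%). Of the gained ones, 116 belonged to genes that rose, and of the lost ones, 10 to genes that fell, where 11.2% of all tested genes rose and 1.68% fell. A promoter lies in its gene's window, so these counts are not independent of the gene lengths. The promoters of 3 gained loci, of a lost one and of the constant promoter with the highest mean rank are printed on their gene's strand. Capitals mark matches, on either strand, to CAGAC (the short SMAD element), GGCGC (a GC-rich SMAD element), TGANTCA (AP-1), GGAATG (TEAD) or CCGGAAG (ETS).
KCNA7, gained, chr19:49072650-49072949, minus strand: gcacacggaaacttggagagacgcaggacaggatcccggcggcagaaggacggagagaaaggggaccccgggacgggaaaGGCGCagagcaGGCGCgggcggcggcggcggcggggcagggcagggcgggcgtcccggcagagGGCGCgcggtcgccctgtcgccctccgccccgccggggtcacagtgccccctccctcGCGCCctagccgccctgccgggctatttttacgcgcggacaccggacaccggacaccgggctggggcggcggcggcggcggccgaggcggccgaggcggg
PMEPA1, gained, chr20:57711423-57711722, minus strand: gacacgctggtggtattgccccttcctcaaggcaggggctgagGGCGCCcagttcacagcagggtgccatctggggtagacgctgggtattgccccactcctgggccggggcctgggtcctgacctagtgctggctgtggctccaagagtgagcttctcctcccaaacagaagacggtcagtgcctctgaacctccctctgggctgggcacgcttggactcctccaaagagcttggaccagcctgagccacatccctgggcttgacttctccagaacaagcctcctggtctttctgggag
COMP, gained, chr19:18791256-18791555, minus strand: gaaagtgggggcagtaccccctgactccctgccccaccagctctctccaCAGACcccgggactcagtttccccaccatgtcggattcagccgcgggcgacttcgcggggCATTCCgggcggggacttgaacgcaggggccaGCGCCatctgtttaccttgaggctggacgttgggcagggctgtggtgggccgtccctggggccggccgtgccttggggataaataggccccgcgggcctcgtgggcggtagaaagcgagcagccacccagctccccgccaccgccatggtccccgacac
KLF15, lost, chr3:126357359-126357658, minus strand: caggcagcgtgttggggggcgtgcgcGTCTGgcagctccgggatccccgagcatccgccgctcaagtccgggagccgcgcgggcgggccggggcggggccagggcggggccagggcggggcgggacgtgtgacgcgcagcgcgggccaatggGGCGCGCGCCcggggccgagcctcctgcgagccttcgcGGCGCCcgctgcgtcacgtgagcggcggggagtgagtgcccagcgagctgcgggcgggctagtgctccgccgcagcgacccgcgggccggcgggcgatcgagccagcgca
EIF1, constant, chr17:41688635-41688934, plus strand: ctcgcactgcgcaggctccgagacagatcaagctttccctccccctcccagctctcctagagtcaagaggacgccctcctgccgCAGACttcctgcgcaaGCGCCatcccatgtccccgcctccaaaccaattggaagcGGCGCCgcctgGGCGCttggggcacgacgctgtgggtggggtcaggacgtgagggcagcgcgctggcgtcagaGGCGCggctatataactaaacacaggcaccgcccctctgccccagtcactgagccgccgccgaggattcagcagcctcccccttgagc

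In these windows peaks covered 300 and 254 bp at KCNA7, 300 and 300 bp at PMEPA1 and 103 and 122 bp at COMP with TGF-beta, and 0 bp with vehicle. At KLF15, a Krüppel-like factor gene of metabolism, they covered 0 bp with TGF-beta and 50 and 183 bp with vehicle, and its gene-wide length fell by 1.19 on the log2 scale (adjusted p = 0.00181, limma). KCNA7 and KLF15 had 4 matches each to GGCGC and EIF1 had 5, with the 2 strands of GGCGCC counted separately. CAGAC was matched once or more in 52.1% of gained, 48.6% of lost, 41.9% of constant, 48.2% of peak-free and 44.8% of all windows. GGCGC was matched in 63.7% of gained, 73.0% of lost, 82.6% of constant, 31.7% of peak-free and 60.0% of all windows.

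The other motifs were rarer. TGANTCA was matched in 6.58% of gained, 2.70% of lost, 3.59% of constant, 9.22% of peak-free and 6.15% of all windows. CCGGAAG stood in 1.58% of gained, 16.2% of lost, 21.7% of constant, 2.99% of peak-free and 12.8% of all windows, and GGAATG in 10.0%, 8.11%, 10.1%, 14.9% and 12.2% in the same order. These 3 shares were lower in gained than in peak-free windows, with no test. Median GC content was 64% in gained, 67% in lost, 67% in constant, 53% in peak-free and 62.3% in all windows, and its part in these shares was not tested. The palindrome GTCTAGAC was matched in at most 0.349% of any class. A match describes letters and does not show that a factor bound there.

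Score ranks were compared only among the 15998 constant regions, a list of the same length in every library. The Spearman rank correlation between libraries over these regions was 0.963 within TGF-beta and 0.963 within vehicle, and 0.913 to 0.925 between treatments, with each region seen in the same 4 libraries. Both TGF-beta libraries ranked a region better than both vehicle libraries in 4283 regions (26.8%) and worse in 4368 (27.3%). The top of the list was shared, since 560 regions were among the top 1000 in every library, and 87.7% of these, against 71.9% of all constant regions, were at a gene end (1 kb or less away). The region at EIF1, a translation start factor, ranked 1 and 2 with TGF-beta and 1 and 1 with vehicle. DNAJC25, SRSF6, MTRFR, TRIM25, PTPN2, NAGK, H3-3B, RPLP0 and INTS5 completed the 10 best mean ranks, and none of the 10 passed the test of length.

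A small set of regions moved far in rank, with 70 rising and 66 falling by more than 5000 places. The region at IL11, a cytokine with a known part in fibrosis (chromosome 19, 55368727 to 55371335), ranked 230 and 286 with TGF-beta, against 10420 and 12660 with vehicle. Its length was 2.61 and 2.53 kb with TGF-beta, against 1.06 and 1.73 kb with vehicle, and did not pass (adjusted p = 0.225, limma). A region between genes, 26.9 kb from ZNF652, ranked 1039 and 1799 with TGF-beta, against 11865 and 12564 with vehicle. One at COL7A1, the collagen of anchoring fibrils, ranked 1739 and 3389 with TGF-beta, against 10603 and 12241 with vehicle. CGB7 and NTF4, YAE1 and ATOSB were nearest to the other 3 largest rises.

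The 6 largest falls in rank included regions at TNFAIP2, PPL and BIRC3. At TNFAIP2, a gene induced by tumour necrosis factor, a region ranked 11170 and 6866 with TGF-beta, against 1256 and 1673 with vehicle. The region at PPL ranked 10374 and 8860 with TGF-beta, against 2380 and 2059 with vehicle. At BIRC3 the ranks were 14468 and 15131 with TGF-beta, against 8284 and 6785 with vehicle, and the region was also shorter, at 0.244 and 0.354 kb with TGF-beta, against 0.988 and 0.991 kb with vehicle (log2 change -2.09, adjusted p = 0.0286, limma). Regions near MOB3A, KCNAB2 and BAHCC1 made up the rest.

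**Figure D5:**
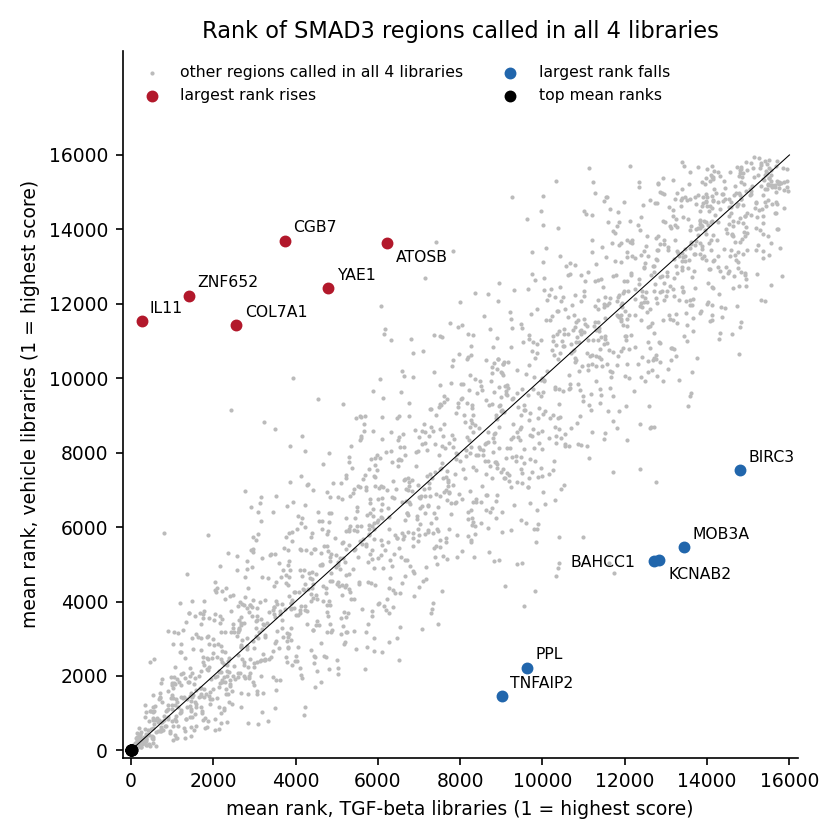
Mean score rank of constant SMAD3 regions in the TGF-beta libraries (horizontal) and the vehicle libraries (vertical), where 1 is the highest score. Grey points are every 8th region in genome order (2000 in all), most of them near the diagonal, with the regions at IL11 and TNFAIP2 among those far from it.

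The length of constant regions was tested too. Of the 15998, 171 lengthened (1.07%) and 26 shortened (0.163%) relative to the library medians by limma. Without vehicle replicate 4 or without vehicle replicate 5, 0 passed, with 2209 and 3360 at an unadjusted p under 0.05. Before any test, in raw length, 8574 (53.6%) were longer in both TGF-beta libraries than in both vehicle libraries and 712 (4.45%) shorter. More regions were joined from separate peaks in the TGF-beta libraries than in the vehicle libraries, 665 against 264. A region 4.30 kb outside ITGB6, a subunit of the integrin that frees latent TGF-beta, measured 4.49 and 4.85 kb with TGF-beta, against 0.264 and 0.294 kb with vehicle. One inside CHST3, a chondroitin sulfotransferase gene, measured 1.82 and 1.70 kb with TGF-beta, against 0.186 and 0.176 kb with vehicle. Its score rank was better in both TGF-beta libraries too, at 13531 and 13645 with TGF-beta, against 14449 and 15193 with vehicle.

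In fixed windows of 100 kb, which need no gene annotation, 7564 of 30277 held enough peak length to be tested, and 20434 held no peak. By limma, 943 windows rose (12.5%), 162 fell (2.14%) and 3967 (52.4%) were kept. Without centring, 1389 rose and 12 fell. Windows without a protein-coding gene made up 94 of those that rose (9.97%), against 3.60% of all tested windows. The window of TGFBI had 47.1 and 35.5 kb with TGF-beta, against 0.828 and 1.27 kb with vehicle (log2 change 4.45, adjusted p = 2.08e-05, limma).

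A window on chromosome 22, 27100001 to 27200000, held no protein-coding gene and had the fourth largest gain. It had 8.74 and 7.60 kb with TGF-beta, against 0.190 and 0.161 kb with vehicle (log2 change 3.37, adjusted p = 2.56e-05, limma). The windows of PSD2, an exchange factor for a small GTPase, and PCED1B were the loci not named above among the 8 windows with the largest gains, with 5.61 and 5.96 kb and 5.39 and 4.15 kb with TGF-beta, against at most 0.167 kb with vehicle. The 6 windows with the largest losses held MUC6 and MUC2, ACSS1, DAGLA, CITED2, CD7 and PPL.

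The share of windows that rose differed by chromosome. It was 25.9% on chromosome 22, 21.4% on chromosome 19 and 18.9% on chromosome 17, against 7.30% on chromosome 4 and on chromosome X. Only 1 of 378 tested windows on chromosome 19 fell. Chromosomes 17, 19 and 22 are dense in genes and rich in GC, and what part base composition had in this was not tested.

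Genes were also read in lists chosen with earlier results of these data known, so the shares of these lists are descriptions only. Of 18 tested ligand, receptor and SMAD genes, 3 rose and 0 fell. Their median log2 change was -0.00, against -0.03 over all tested genes, of which 11.2% rose. Over all genes, 624 of 12265 rose with an equal number of peaks per library and 706 of 12718 without vehicle replicate 4, and the counts of each list under those settings are to be read against these. ENG, the co-receptor endoglin, had 4.95 and 4.77 kb with TGF-beta, against 1.23 and 1.31 kb with vehicle (log2 change 1.28). SMAD3 itself had 7.02 and 5.53 kb with TGF-beta, against 1.79 and 2.41 kb with vehicle (1.06), and TGFB1, the ligand, rose by 0.67. The calls of SMAD3 and TGFB1 were lost with an equal number of peaks per library (adjusted p up to 0.294 and 0.114 over the alternatives, limma), and that of TGFB1 without vehicle replicate 4. The receptor genes TGFBR1 (0.22, adjusted p = 0.249) and TGFBR2 (-0.03, adjusted p = 0.881) did not pass in limma.

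Of 14 feedback inhibitors, 4 rose and 0 fell (median log2 change 0.23). Beside PMEPA1, the inhibitory SMAD gene SMAD7 had 9.96 and 7.54 kb with TGF-beta, against 1.63 and 2.25 kb with vehicle (1.60), and SKIL, which encodes the corepressor SnoN, had 5.53 and 5.73 kb with TGF-beta, against 1.78 and 1.98 kb with vehicle (1.04). SMAD6 rose by 0.76, a call lost with an equal number of peaks per library.

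Of 16 genes of storage and activation of latent TGF-beta, 8 rose and 1 fell (median 0.59), and 8 rose with an equal number of peaks per library as well. ITGB6 had 4.81 and 5.46 kb with TGF-beta, against 0.264 and 0.750 kb with vehicle (2.20). TGM2 (2.09), the activator thrombospondin gene THBS1 (1.47) and the latent binding protein gene LTBP2 (1.47) rose too. ITGB8, the subunit of another activating integrin, fell by 0.53, a call lost in 8 alternatives, among them the fits without TGF-beta replicate 4 and without either vehicle replicate.

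Of 21 matrix genes 12 rose and 0 fell (median 0.96), with 9 of 20 rising when each library had an equal number of peaks. FN1, fibronectin, had 9.41 and 6.98 kb with TGF-beta, against 1.02 and 1.11 kb with vehicle (2.14), and LAMB3, a laminin chain, 1.39 and 1.75 kb with TGF-beta and 0 kb with vehicle. Of 10 proteases and inhibitors 6 rose and 0 fell (median 0.92). ADAMTS6, a metalloprotease gene, rose by 1.61 and ADAM12 by 1.39, beside BMP1. The call of ADAM12 was lost in 4 alternatives, including an equal number of peaks per library.

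Of 25 focal adhesion and actin genes 18 rose and 0 fell (median 0.74). The count was 12 without vehicle replicate 4 and 8 of 24 with an equal number of peaks. TPM1 had 25.5 and 21.9 kb with TGF-beta, against 3.10 and 4.86 kb with vehicle (2.14). ACTN4, an actin crosslinker, had 7.25 and 6.57 kb with TGF-beta, against 0.988 and 1.17 kb with vehicle (1.91). ITGA5, the fibronectin receptor subunit, rose by 1.48, a call lost with an equal number of peaks.

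Of 29 SMAD partner factors, 6 rose and 0 fell (median 0.10), and 3 rose without vehicle replicate 4. ETS2 (1.32), SNAI2 (1.22), a repressor of epithelial genes, RUNX1 (1.14) and JUN (0.76) led, and the call of JUN was lost without vehicle replicate 4. RUNX1 had 6.05 and 5.43 kb with TGF-beta, against 1.37 and 2.26 kb with vehicle. Of 21 secreted cytokines and growth factors 8 rose and 2 fell (median 0.37). ANGPTL4, an inhibitor of lipoprotein lipase, had 5.61 and 4.87 kb with TGF-beta, against 0.335 and 0.386 kb with vehicle (2.41). WNT7B (2.13), IL11 (1.30) and LIF (1.07) rose, WNT5B fell by 1.01 and CXCL2, a neutrophil chemokine, by 0.58. With an equal number of peaks 4 rose and 1 fell, and the calls of IL11 and CXCL2 were lost.

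Of 22 keratin and junction genes 3 rose and 2 fell (median -0.01), and 1 rose with an equal number of peaks or without vehicle replicate 4. JUP, plakoglobin (0.93), CLDN7 (0.64) and CGN (0.51), both of tight junctions, rose. The call of JUP was lost with an equal number of peaks, that of CLDN7 without vehicle replicate 4 and that of CGN in 5 alternatives, and CGN had -0.10 in a window of 2.5 kb. KRT19, a duct keratin, had 0.551 and 1.09 kb with TGF-beta, against 0.953 and 2.88 kb with vehicle, so the groups overlapped. Its log2 change of -1.10 passed narrowly (adjusted p = 0.0477, limma) and the call was lost in 9 of 13 alternatives. CDH3, P-cadherin, fell by 0.59 with overlapping groups, a call lost in 7 alternatives, and CDH1, E-cadherin, had -0.52 (adjusted p = 0.0529, limma). H3K27ac at CDH1 covered 20.3 and 19.6 kb with TGF-beta, against 27.1 and 30.1 kb with vehicle (log2 change -0.60, adjusted p = 0.00198, limma).

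Of 12 genes of cholangiocyte factors, channels and transporters 3 rose and 1, MUC6, fell (median 0.12). HNF4A, a liver transcription factor gene, had 1.45 and 1.27 kb with TGF-beta and 0 kb with vehicle, SOX4 rose by 0.57 and SLC4A2, a bile duct anion exchanger, by 0.56. The call of SOX4 (adjusted p = 0.0482, limma) was lost in 9 of 13 alternatives, no centring among them, and that of SLC4A2 in 4. Both were lost with an equal number of peaks and without vehicle replicate 4, which left HNF4A as the 1 that rose in either setting.

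Of 21 genes of lipid, glucose and acetyl-CoA metabolism 3 rose and 2 fell (median -0.01). SCD, a fatty acid desaturase, had 13.8 and 9.91 kb with TGF-beta, against 2.63 and 3.68 kb with vehicle (1.43). PPARD, a fatty acid receptor (0.95), and SLC2A1, a glucose transporter (0.79), rose, and ACSS1 and MLXIPL fell. The call of SLC2A1 was lost with an equal number of peaks per library. Of 26 nuclear receptor, clock and stress genes 6 rose and 1, CITED2, fell (median 0.06). RARA, a retinoic acid receptor gene, had 17.7 and 14.2 kb with TGF-beta, against 2.67 and 5.12 kb with vehicle (1.63). BHLHE40, a clock repressor, rose by 1.42, VDR by 0.79 and PER1 by 0.71. The calls of VDR and PER1 were lost without vehicle replicate 4, where 2 rose and 2 fell.

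Of 23 cell cycle genes 6 rose and 0 fell (median 0.11). CDKN1A and CDKN2B, the inhibitors p21 and p15, had 5.52 and 4.40 kb and 5.82 and 5.93 kb with TGF-beta, against 1.61 and 1.95 kb and 2.15 and 3.20 kb with vehicle (0.94 and 0.70). CDK6 (1.23) and GADD45A (0.99) rose as well, while ID1, a target of BMP signalling, had 0.05. Without vehicle replicate 4, 2 rose and 2 fell, and the calls of CDKN2B and GADD45A were lost. Of 20 ribosomal protein genes 6 rose and 0 fell (median 0.33), 1 of 19 rose with an equal number of peaks and 0 without vehicle replicate 4 by limma. RPL27 (0.94), RPS6 (0.78), RPS23 (0.73) and RPS14 (0.69) were among the 6.

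In the mesenchymal and endothelial list 2 of 4 tested members rose, PDGFRB (1.15) and THY1 (0.69). Peaks of the whole list summed to 8.53 and 8.85 kb with TGF-beta, against 3.47 and 4.74 kb with vehicle. Of 5 tested leukocyte markers CD4 rose (1.32), in a window shared with GPR162 and P3H3, and the list summed to 16.8 and 14.9 kb with TGF-beta, against 7.68 and 10.2 kb with vehicle. The 1 tested hepatocyte marker, TAT, had a log2 change of -0.20, and that list summed to 1.18 and 1.21 kb with TGF-beta, against 1.54 and 1.61 kb with vehicle.

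MicroRNA genes were read from the 1558 hairpins of RefSeq, of which 90 overlapped a SMAD3 peak in all 4 libraries, 13 were gained and 1 lost. The mature sequences of hairpins with much peak length, picked after values were seen, are printed with the seed (bases 2 to 8) in capitals. No pair of them shares a seed.
hsa-let-7b-5p: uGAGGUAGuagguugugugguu
hsa-miR-23a-3p: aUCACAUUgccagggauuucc
hsa-miR-27a-3p: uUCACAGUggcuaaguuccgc
hsa-miR-24-3p: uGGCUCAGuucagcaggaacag
hsa-miR-210-3p: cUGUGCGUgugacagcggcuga
hsa-miR-21-5p: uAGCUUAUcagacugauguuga

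The hairpins MIR23A, MIR27A and MIR24-2 lie in 1 cluster on chromosome 19. Peaks within 5 kb of MIR23A covered 7.91 and 7.01 kb with TGF-beta, against 2.03 and 3.57 kb with vehicle. Around MIRLET7B on chromosome 22 they covered 8.07 and 5.11 kb with TGF-beta, against 1.16 and 2.73 kb with vehicle. MIR210, a hypoxia-induced microRNA gene, had 5.98 and 6.15 kb with TGF-beta, against 1.60 and 2.45 kb with vehicle. MIR21, which SMAD proteins are known to regulate, had 9.56 and 9.92 kb with TGF-beta, against 8.07 and 8.58 kb with vehicle. The TGF-beta libraries lay above the vehicle libraries at all 4 loci, least of all at MIR21. There peaks already covered most of the 5 kb on each side with vehicle, so little more length could be added. These lengths were neither centred nor tested.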

How the data were processed

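SMAD3, H3K27ac and H3K9ac peak lists of 12 libraries were used. Input samples were not analysed here. Per the labels' protocols, crosslinking took 10 min in 1% formaldehyde, and sequencing gave paired reads of 51 bases. BWA, Picard, MACS2 and bedtools were used with hg38, per the submitters' processing notes. For their order, versions and peak cutoff: not given in the sources used here. Each deposited file gives peaks of 1 library with a score, taken as −log10 of the caller's p-value or q-value, which the authors computed. The score served only for ranks and minimums inside 1 library.

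Peaks on chromosomes 1 to 22 and X were kept. Gene spans came from RefSeq (GRCh38.p14), which gives no strand or exons here, so a gene end is either end. The peak length of a gene (10 kb on each side, mean of at least 500 bp) was analysed as log2 of length plus 500 bp, centred on medians over tested genes covered in all 4 libraries, with limma 3.58.1 in R 4.3.3. Windows of 100 kb were treated alike, and constant regions without the 500 bp. With 2 against 2, an exact permutation test of a single value cannot go below 0.333. Other steps used Python 3.11.15, numpy 2.4.6, pandas 2.3.3 and matplotlib 3.10.9. The fits were tested on simulated data.

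Named genes were the 12 largest gains and 10 largest losses (1 per locus, groups not overlapping). Also named were the 10 kept genes with most peak length, up to 4 gains and 2 losses per list, and 12 genes by name. Windows, domains and regions were named by like rules. Results of 2 genes and 1 list are not reported here. The members and the 18 lists (386 entries) were chosen with earlier results of these data known. Alternatives changed the pseudocount, filter, window, centring, number of peaks, score minimum, block and libraries.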

Additional observations from a re-analysis of the deposited data

How the results depend on the processing

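Of the 81 named genes that were called, 49 kept the call in every alternative that tested them. Some of these were not tested in all 13 alternatives, such as GREB1, which was tested in 9. The call was lost by 24 genes with an equal number of peaks per library and by 10 without centring. Many of the same genes, and some others, lost it without 1 of the libraries. CGN changed sign with a window of 2.5 kb, to -0.10. The count of called SMAD3 genes was 712 with an equal number of peaks, 3021 with a window of 50 kb and 789 to 1814 without 1 library, against 1605. For windows of 100 kb it was 633 with an equal number of peaks and 497 to 1081 without 1 library, against 1105. For the length of constant regions it was 331 with a pseudocount of 100 bp, 29 without centring and 0 to 232 without 1 library, against 197. Gained regions numbered 1691 and lost regions 563 with an equal number of peaks, and 5504 to 12572 and 406 to 1627 without 1 library, where the definition is looser. Gained promoters numbered 432 to 782 without 1 library. Sites with a peak over 5 kb in every TGF-beta library and no vehicle library, an alternative chosen after seeing the data, numbered 14 to 35 without 1 library. Called genes of H3K27ac numbered 6019 with a window of 50 kb and 2383 to 3230 without 1 library, against 3698, and those of H3K9ac 2316 with a window of 50 kb, 557 without centring and 899 to 1546 without 1 library, against 1383. Replicate numbers 4 and 5 are shared by both treatments. Deviations of equal numbers had a correlation of -0.069 over 12508 genes, which cannot settle whether equal numbers mark paired libraries. With the replicate block the counts were 1671 for genes, 894 for windows and 70 for constant region lengths, and 3666 and 1706 for genes of H3K27ac and H3K9ac. The block ended 1 call among the named genes, that of SOX4. Where a library is left out, the lone library of its treatment is assumed to vary like the other pair. The causes of these shifts were not tested. Unknown depth limits every count of gained and lost sites.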
